A study of Mus musculus with 2 samples.

Results

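Cycling T cells were taken from single-cell RNA sequencing of CD45-enriched immune cells of mouse tumours. By the labels, 1 library came from control mice and 1 from mice given motolimod, which activates Toll-like receptor 8 (TLR8). The members were chosen by measured UMI counts. A barcode, the mark of 1 droplet, was taken if it had at least 300 genes, at least 800 unique molecular identifiers (UMIs, each standing for 1 captured RNA molecule) and at most 10% of its UMIs from mitochondrial genes. It also had to hold a UMI of Cd3e or Cd3g, no UMI of Csf1r, Csf3r or Foxp3, at most 1 UMI of C1qa, C1qb and C1qc together and fewer than 3 UMIs of Krt18. Last, at least 3 of the 6 cycling genes Mki67, Top2a, Birc5, Ube2c, Pclaf and Tk1 had to be detected. The rule found 95 cells among 18136 barcodes, 52 of 8099 in the control library and 43 of 10037 in the motolimod library. The study names 5 mice per group. Whether they were pooled, the tumour model, the strain, the age, the dose and what the control mice received are not given in the sources used here. With 1 library per group there is no replicate and no test, treatment and library cannot be told apart, and every interval is a 95% interval for counting error only.

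A T cell that meets its antigen leaves rest, copies its DNA in S phase and divides in mitosis, and a CD8 T cell does so while building granules of perforin and granzymes. E2F factors switch on the genes of DNA replication first, and the DREAM and MuvB complexes then time the genes of G2 and mitosis through short promoter elements. In tumours, dividing CD8 T cells are known to carry activation receptors such as 4-1BB and inhibitory receptors such as PD-1.

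The label was checked against T cell genes that the rule did not use. Cd3d, a CD3 chain of the T cell receptor complex, was detected in 52 of 52 control and 41 of 43 motolimod members. The rule's own Cd3e and Cd3g, given as a description, were each found in 52 and 42 members. Trac, the constant part of the receptor alpha chain, was detected in 50 of 52 and 36 of 43 members. Trbc2, a constant part of the beta chain, was detected in 48 of 52 and 39 of 43.

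Depth differed between the groups compared. Members had a median of 17982 UMIs in the control library (range 4212 to 56794) and 14111 in the motolimod library (1056 to 37307), and summed to 1050844 and 632488 UMIs. The other T cells, those that met every clause but the last, had medians of 3179 and 4324 UMIs. The libraries shared 113 barcodes, 2 of which were members in either library and none in both. The other clauses removed 679 of 925 Cd3e- or Cd3g-positive control barcodes and 440 of 787 in the motolimod library. Of the barcodes removed, 278 and 98 had at least 3 of the cycling genes, and these, Foxp3-positive cells among them, were not analysed here. Genes of other cell types were still present in the members. The summed level of 15 macrophage genes was 1420 CPM (counts scaled to a total of 1000000 UMIs) in control members and 1829 CPM in motolimod members, with all 15 detected in the former and Mrc1 at 0 in the latter. Of these 15 genes, 7 reached 50 CPM in either library, and 2 of them were at least 1.5-fold higher in motolimod members and 5 lower. The 2 higher ones, named after their values were seen, were Cd74 and H2-Ab1 of antigen presentation. Within CD8 members all 7 compared were lower, with a median log2 ratio of -2.79. Per cell the sum ran from 0 to 22287 CPM with a median of 285 in the control library, and from 0 to 48476 with a median of 158 in the motolimod library. At least 4 of 9 myeloid genes were found in 5 of 52 and 3 of 43 members. The defining neutrophil genes S100a8 and S100a9 were at 0 in control members, and the 10 neutrophil genes summed to 60.0 and 206 CPM. The 9 B cell genes summed to 70.4 and 31.6 CPM, with a UMI of any in 18 of 52 and 11 of 43 members and with Cd79a and Ms4a1 at 0 in both libraries. The 8 dendritic cell genes summed to 7.61 and 49.0 CPM, and the 8 genes of stroma, mast cells and erythroid cells to 6.66 and 50.6 CPM, each higher in motolimod members. The part of these cell types in the results was not tested.

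The promoters of 4 cycle genes are shown because early and late cycle genes are described separately. Each run is the 250 bases before the RefSeq start (build GRCm38.p6), 5′ to 3′ on the gene's strand, with the matched motif in capitals. For Cdc6, which loads the replicative helicase (chr11:98907901-98908150, plus strand), the capitals mark an E2F motif. For Cdc20, which starts the exit from mitosis (chr4:118437344-118437593, minus strand), they mark the cell cycle homology region TTTGAA. For Ube2c, its partner ubiquitin-conjugating enzyme (chr2:164769679-164769928, plus strand), and Top2a, which untangles DNA (chr11:99024190-99024439, minus strand), they mark TTTGAA on either strand.
Cdc6: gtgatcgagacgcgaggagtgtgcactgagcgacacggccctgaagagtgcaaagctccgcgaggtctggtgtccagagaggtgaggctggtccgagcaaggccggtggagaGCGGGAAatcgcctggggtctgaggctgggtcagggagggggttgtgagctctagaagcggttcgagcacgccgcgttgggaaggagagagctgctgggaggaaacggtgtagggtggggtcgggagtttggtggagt
Cdc20: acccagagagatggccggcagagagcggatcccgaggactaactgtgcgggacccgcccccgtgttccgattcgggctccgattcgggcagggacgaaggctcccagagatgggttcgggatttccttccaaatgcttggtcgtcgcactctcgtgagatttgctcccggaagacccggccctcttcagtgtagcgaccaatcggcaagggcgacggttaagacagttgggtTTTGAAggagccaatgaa
Ube2c: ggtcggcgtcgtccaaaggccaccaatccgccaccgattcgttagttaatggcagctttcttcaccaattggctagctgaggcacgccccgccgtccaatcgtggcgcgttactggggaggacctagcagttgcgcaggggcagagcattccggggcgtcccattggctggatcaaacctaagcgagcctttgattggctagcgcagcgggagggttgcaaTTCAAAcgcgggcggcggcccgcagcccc
Top2a: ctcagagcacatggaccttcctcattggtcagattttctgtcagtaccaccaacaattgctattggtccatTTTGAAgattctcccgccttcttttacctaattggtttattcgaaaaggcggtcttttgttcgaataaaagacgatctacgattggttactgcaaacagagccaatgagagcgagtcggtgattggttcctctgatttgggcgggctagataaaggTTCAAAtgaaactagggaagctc
Searched on both strands from 250 bases before to 50 bases after each start, TTTGAA was found in 31 of 39 promoters of the G2 and mitosis list that had an entry (79.5%), in 6 of 36 of the lists of G1/S and S phase (16.7%) and in 18.1% of 27025 promoters. TTCCCGC or TTGGCGC, the E2F motifs, were found in 4 of 39 (10.3%), 18 of 36 and 6.93%. CCAAT, the box bound by NF-Y, was found in 76.9%, 63.9% and 37.9%. Of the 6 cycling genes of the rule, 3 held TTTGAA, 2 an E2F motif and 4 CCAAT. None of these motifs is contained in another. A match is a description of letters, and binding was not measured.

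The number of cycling genes per cell, which chose the members, is given as a description. Among 246 control T cells, 133 had none of the 6 genes, 42 had 1, 19 had 2, 7 had 3, 6 had 4, 13 had 5 and 26 had all 6. Among 347 motolimod T cells these numbers were 235, 59, 10, 9, 9, 9 and 16. Cells with all 6 genes thus outnumbered those at the threshold in both libraries. The cells just inside the rule, with 3 genes, had a median of 15172 UMIs in the control library and 9256 in the motolimod library. Those just outside it, with 2 genes, had 9932 and 6436.

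**Figure D1:**
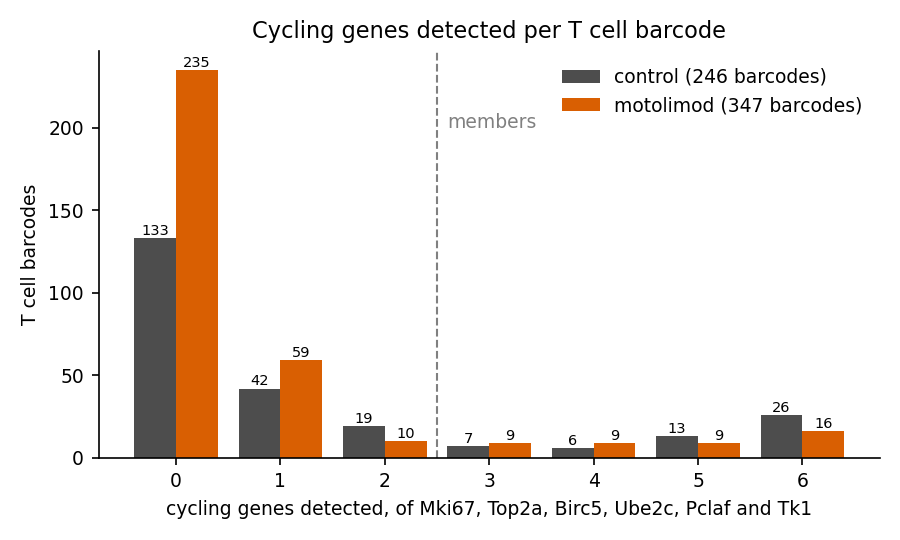
Number of T cell barcodes (vertical axis) by how many of the 6 cycling genes they held (horizontal axis), in the control (grey) and motolimod (orange) libraries. Members lie right of the dashed line, 52 of 246 and 43 of 347 barcodes.

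Cycling cells made up 21.1% of control T cells (interval 16.2 to 26.8) and 12.4% of motolimod T cells (9.12 to 16.3), a ratio of 0.586 (0.382 to 0.895). Of all barcodes that passed the cell filter they made up 0.695% and 0.462%, a ratio of 0.664 (0.433 to 1.01). After each cell was thinned to 3000 UMIs, the shares of T cells were 22.0% and 8.82% (ratio 0.401, 0.228 to 0.693), with 87 control and 75 motolimod cells too shallow to keep. Of these, 0 control cells and 1 motolimod cell were members. Thinning thus dropped almost only non-cycling cells, and more of them in the control library, which changes the shares and their ratio. Thinned to 1000 UMIs they were 6.12% and 4.65% (ratio 0.760, 0.352 to 1.65). These shares come from the 6 genes that chose the cells and from 1 library per group, so they describe the 2 libraries and do not compare treatments. Macrophages, taken as barcodes with Csf1r, at least 5 C1q UMIs and no Cd3e, Cd3g or Csf3r, gave a similar ratio by the same 6 genes, with 33.4% and 14.5% cycling (0.435, 0.381 to 0.496).

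By co-receptor, the cycling cells were CD8 T cells, with a few exceptions in the motolimod library. Cd8a and Cd8b1, the chains of the receptor that reads MHC class I, were both detected in 52 of 52 control members, and Cd4 in none (0%, exact interval 0 to 6.85%). In the motolimod library, 36 of 43 members (83.7%, 69.3 to 93.2) held Cd8a or Cd8b1 without Cd4, 3 held Cd4 without either and 4 held neither. Among non-cycling T cells, the CD8 share was 39.7% (32.8 to 46.9) in the control and 56.3% (50.5 to 61.9) in the motolimod library. Thinned to 3000 UMIs, the CD8 shares were 90.4% of cycling and 61.7% of non-cycling control cells, and 78.6% and 62.6% in the motolimod library. Of the non-cycling cells, 107 of 194 control and 230 of 304 motolimod cells were deep enough to keep. In macrophages, which should lack the gene, Cd8a or Cd8b1 without Cd4 was seen in 1.31% and 0.577% of barcodes, at median depths of 16221 and 7828 UMIs. Within CD8 T cells, 52 of 129 control cells (40.3%, 31.8 to 49.3) and 36 of 207 motolimod cells (17.4%, 12.5 to 23.3) were cycling, a ratio of 0.431 (0.274 to 0.673). Trdc, the constant part of the delta chain of gamma-delta T cells, was found in 1 of 52 and 1 of 43 cycling cells, against 62 of 194 and 67 of 304 non-cycling cells. Klrb1c, the NK cell receptor NK1.1, was found in 0 and 3 members.

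The members carried many different T cell receptors by their V genes. A Trbv UMI, from the variable part of the beta chain, was found in 51 of 52 and 39 of 43 members, although the labels name a 3′ kit. Taking the leading V gene with at least 2 UMIs, 49 control members held 12 different Trbv genes and 33 motolimod members held 13. Both a Trbv and a Trav gene could be read in 31 and 23 members, which held 19 and 17 distinct pairs. In the control library 6 of these pairs were also seen in non-cycling CD8 T cells, and they covered 16 of the 31 cycling cells (51.6%). In the motolimod library 5 pairs were, covering 10 of 23 (43.5%). The control pair seen most, Trbv12-1 with Trav12-2, was in 5 cycling and 3 non-cycling cells, and Trbv13-1 with Trav14-2 was in 3 and 5. In the motolimod library Trbv1 with Trav5-4 was in 3 cycling and 11 non-cycling cells, and Trbv5 with Trav6-4 was in 4 and 3. No pair was shared between cycling cells of the 2 libraries. Set against cycling and non-cycling CD8 cells of the other library, 1 pair of the control cycling cells was found there. For the motolimod cycling cells it was 0. The overlap between non-cycling CD8 cells of the libraries was not counted, so these numbers have no background to be read against. A pair of V genes is not a clone, since the joined CDR3 was not read, and V genes of near-identical sequence can exchange UMIs. These counts were chosen after the data were seen.

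Gene levels were compared on UMIs summed over the members of a library, as CPM. A gene was compared if it reached 50 CPM in either library, and a ratio of 1.5 or more either way was counted as higher or lower. A gene that passed only through the library where it was high had to differ, so the counts describe the compared genes and not whole lists. Each compared gene under 50 CPM in 1 library was thus compared only through the other library. In motolimod over control, 433 of 3050 compared genes were higher, which is 14.2%, and 240 were lower, which is 7.87%, with a median log2 ratio of 0.06. When the member with most UMIs of each gene was left out, 290 and 172 of these were still counted.

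Early and late cycle genes gave different counts in motolimod members. Over all compared genes 14.2% were higher and 7.87% lower. Of 12 compared genes of origin licensing and G1/S, from a list of 20, 9 were higher and none lower, with a median log2 ratio of 0.80. Cdc6 had 18.1 CPM in the control and 50.6 CPM in the motolimod library, a ratio of 2.80 (1.54 to 5.23). It was compared only through the motolimod library, so its being higher follows in part from that filter. Mcm4, Mcm5 and Mcm7, subunits of the replicative helicase, had ratios of 2.10, 2.13 and 1.86, with Mcm5 at 97.1 and 207 CPM. Cdt1, which brings the helicase to origins, had a ratio of 1.80. Of 20 compared genes of DNA synthesis, from a list of 23, 10 were higher and none lower, with a median of 0.56. They included Chaf1a, a histone chaperone at the fork (2.32), Pole, the leading-strand polymerase (1.94), Dnmt1, which copies DNA methylation (1.74), Rrm2, which makes deoxynucleotides (1.73), and Lig1, which joins nicks (1.69). In the control library, 10 G1/S genes and 15 S phase genes reached 50 CPM in cycling or non-cycling T cells. Some genes of both lists were thus compared only through the motolimod library. Their being higher follows in part from that filter. Cdt1 no longer passed 1.5-fold after thinning to 3000 UMIs, nor Lig1 with CPM averaged over cells. Of 15 compared histone and chromatin genes out of 18, 2 were higher, Hist1h2ap (2.54) and Hist1h4d (1.61), which is near the 14.2% over all compared genes.

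In the list of G2 and mitosis, 32 of 50 genes were compared, 4 were higher and 4 lower, and the median was -0.07. Over all compared genes the shares were 14.2% higher and 7.87% lower. Cdc20 had 118 and 58.5 CPM, a ratio of 0.496 (0.334 to 0.721). Cenpa, the histone of the centromere, had 655 and 353 CPM (0.539, 0.461 to 0.627), and Ccnb1, cyclin B1, had 103 and 58.5 CPM (0.569, 0.381 to 0.834). Stmn1, which destabilises microtubules, went the other way with 399 and 713 CPM (1.79, 1.56 to 2.05), as did Kif23, a motor of cell separation (1.66). Cenpa no longer passed 1.5-fold after thinning to 3000 UMIs, nor Ccnb1 with the C1q genes at 0. Kif23 no longer passed it without barcodes of at least 4 myeloid genes or within CD8 members. Within CD8 members, 1 of 31 compared genes of the list was higher and 7 lower. Over all 3028 genes compared there, 407 were higher and 248 lower. Within the rule, Ube2c had 622 and 417 CPM and Mki67 266 and 345 CPM, values that helped to choose the cells and are given as a description.

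Summed over each list, G1/S genes stood at 1173 CPM in control and 1956 CPM in motolimod members (ratio 1.67, 1.54 to 1.81), and S phase genes at 2604 and 3369 CPM (1.29, 1.22 to 1.37). G2 and mitosis genes stood at 5430 and 5230 CPM (0.963, 0.923 to 1.01). With each cell thinned to 3000 UMIs the sums were 1045 and 2079, 2494 and 3405, and 5423 and 5802 CPM. In cycling macrophages the same sums were 1112 and 1193 CPM for G1/S, 1693 and 1744 for S phase, and 3612 and 3550 for G2 and mitosis. Cell by cell, the G2 and mitosis share of all cycle UMIs ran from 17.3% to 87.9% in the control members with a median of 59.0%. It ran from 14.0% to 91.0% in the motolimod members with a median of 40.0%. The ranges overlapped almost entirely, and the medians of cycling macrophages were 55.9% and 53.0%.

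**Figure D2:**
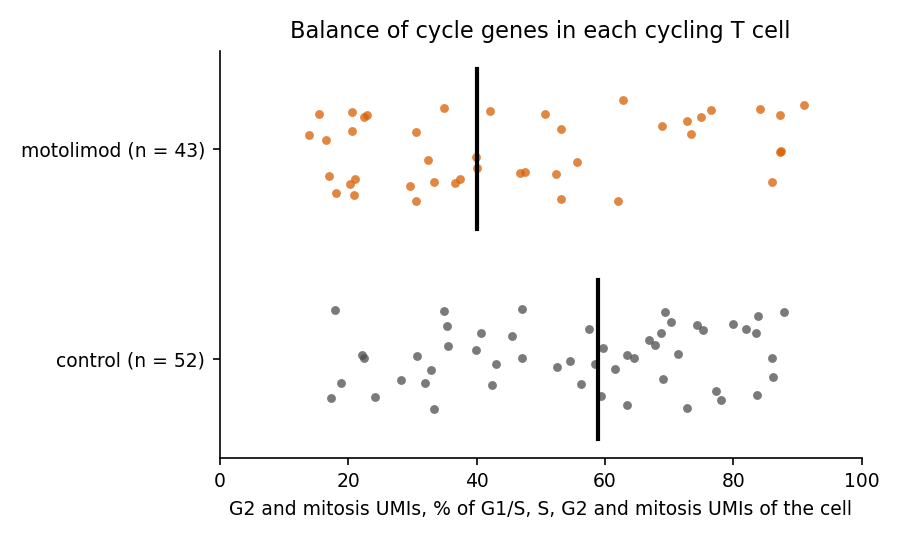
Share of each member's cycle UMIs that came from G2 and mitosis genes (horizontal axis, in percent), with 1 point per cell and the black bar at the median. The medians are 59.0% for the 52 control cells and 40.0% for the 43 motolimod cells, and both libraries span most of the axis.

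Of 12 compared cyclin D, CDK and inhibitor genes out of 18, 5 were higher, none lower and 7 within the threshold. The shares over all compared genes were 14.2% higher and 7.87% lower. Rb1 and Mdm2 were compared only through the motolimod library. Rb1, the brake on E2F, had 10.5 and 52.2 CPM (4.98, 2.46 to 10.9), found in 9 of 52 and 23 of 43 members. Cdkn2d, an inhibitor of CDK4 and CDK6, had a ratio of 1.99 and Mdm2, which degrades p53, 1.93. Btg2 (1.62) and Ccnd3 (1.51) were near the threshold of 1.5, and both stood under it without their top cell.

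Granzymes differed in both directions. Of the 15 cytotoxic granule genes, all compared, 2 were higher and 7 lower, with a median of -0.18. The shares over all compared genes were 14.2% and 7.87%. Gzma, the tryptase granzyme A (chr13:113093825-113100981, minus strand, mm10), had 39.0 CPM in control members and 1246 CPM in motolimod members, a ratio of 31.9 (23.3 to 44.8). It was found in 3 of 52 and 23 of 43 members, and 35 of its 41 control UMIs were in 1 cell. Without its top motolimod cell the ratio was 25.7. Gzma was compared only through the motolimod library, so its being higher follows in part from that filter. Without barcodes of at least 4 myeloid genes the control library kept 1 Gzma UMI over 47 cells, against 760 over 40 in the motolimod library, a ratio of 1159 (207 to 45823). Thinned to 3000 UMIs, 1.92% of control members and 42.9% of motolimod members held Gzma, against 0.936% and 2.07% of macrophages. In non-cycling CD8 T cells it stood at 226 and 639 CPM, a ratio of 2.83. Cycling cells were thus below the non-cycling CD8 cells in the control library and above them in the motolimod library.

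The granzymes of the chromosome 14 cluster went the other way, but with few cells behind them. Gzmc, Gzmd, Gzme, Gzmf and Gzmg lie with Gzmb between 56117626 and 56262260 on that chromosome (mm10). Gzmc had 1128 and 435 CPM (0.386), Gzmd 920 and 258 (0.280), Gzme 856 and 255 (0.297), Gzmf 1382 and 612 (0.443) and Gzmg 249 and 17.4 CPM (0.0698). Gzmg was compared only through the control library. Any of the 5 was found in 33 of 52 control and 12 of 43 motolimod members, and at least 10 UMIs of them together in 24 and 7. The 3 members with most of these UMIs held 55.8% of them in the control and 89.7% in the motolimod library. The 10 control members with 1 C1q UMI held 59.4% of the control UMIs, and with the C1q genes required at 0 the ratios were 0.680 for Gzmc, 0.519 for Gzmd, 0.725 for Gzme, 1.17 for Gzmf and 0.214 for Gzmg. Without its top cell Gzmf stood at 0.711. The transcripts of Gzmd and Gzme were 93.8% identical and those of Gzme and Gzmg 90.2% (GENCODE M21), so how UMIs were divided among these genes is uncertain. In non-cycling CD8 cells the 5 ratios ran from 0.0735 for Gzmc to 0.454 for Gzmf.

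Gzmb, the caspase-activating granzyme B, did not differ by the threshold, at 2184 and 2171 CPM (0.994, 0.929 to 1.06). It was found in 49 of 52 and 38 of 43 members, with levels per cell from 0 to 79.1 UMIs per 10000 in the control and 0 to 72.1 in the motolimod library. Prf1, the pore former perforin, had 564 and 302 CPM (0.535, 0.452 to 0.631), and Gzmk, granzyme K, had 127 and 226 CPM (1.79, 1.40 to 2.28). Nkg7 (1.12), Ctsw (1.15), Srgn (0.883), Lamp1 (1.29) and Fasl (1.08), genes of granule proteins and of the Fas ligand, stayed within the threshold. At least 10 UMIs of the cluster granzymes Gzmc to Gzmg were rare in motolimod members with and without Gzma, found in 7 of 43 members. Of 23 Gzma-positive members, 3 had at least 10 UMIs of Gzmc to Gzmg, as did 4 of the 20 others.

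**Figure D3:**
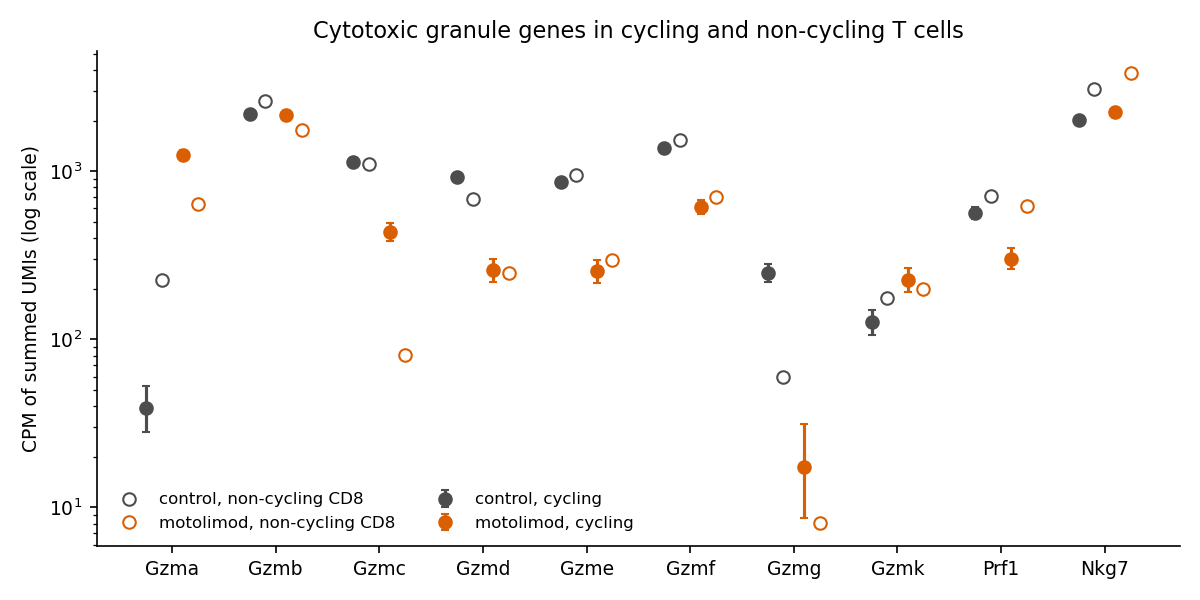
CPM of summed UMIs (vertical log axis) of 10 granule genes in cycling T cells (filled points, bars are 95% Poisson intervals) and in non-cycling CD8 T cells (open points) of both libraries. Gzma is lowest in cycling control cells at 39.0 CPM and highest in cycling motolimod cells at 1246 CPM, while Gzmb lies at 2184 and 2171 CPM.

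Secreted factors were mixed, with 2 of 8 compared genes higher and 3 lower out of a list of 14. The shares over all compared genes were 14.2% and 7.87%. Ccl5, a chemokine for T cells and monocytes, had 1133 CPM in the control and 4090 CPM in the motolimod library, a ratio of 3.61 (3.37 to 3.87). Its median per cell was 8.80 UMIs per 10000 in the control and 39.7 in the motolimod members. Csf2, which codes for GM-CSF, had 155 and 3.16 CPM, from 163 UMIs in 12 control cells and 2 UMIs in 2 motolimod cells, a ratio of 0.0204 (0.00245 to 0.0748). A single control cell held 80 of those UMIs, and without it the ratio was 0.0389. Csf2 was compared only through the control library, so its being lower follows in part from that filter. Tnf had a ratio of 2.12 and was compared only through the motolimod library. Xcl1, which attracts cross-presenting dendritic cells, and Ccl3 had ratios of 0.451 and 0.650, and 0.743 and 0.951 without their top cells. Ifng, the gene of interferon gamma, named here after its values were seen, had 403 and 460 CPM (1.14, 0.981 to 1.33).

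Costimulatory receptors went both ways. Of the 9 on the list, all compared, 4 were higher and 3 lower in motolimod members, with a median log2 ratio of 0.13. The shares over all compared genes were 14.2% and 7.87%. The 3 lower ones belong to the tumour necrosis factor receptor family, while Tnfrsf1b and Cd27, of the same family and list, were not lower. Tnfrsf4, OX40 (chr4:156013843-156016612, plus strand), had 370 and 98.0 CPM (0.265, 0.199 to 0.347), found in 47 of 52 and 17 of 43 members. Tnfrsf18, GITR, which lies next to it (chr4:156026164-156028895, plus strand), had 354 and 115 CPM (0.326, 0.250 to 0.420). Tnfrsf9, 4-1BB (chr4:150914562-150946102, plus strand), had 644 and 264 CPM (0.410, 0.344 to 0.486). After thinning to 3000 UMIs, 65.4% and 23.8% of members held Tnfrsf4, 73.1% and 31.0% Tnfrsf9, and 57.7% and 31.0% Tnfrsf18. Each of the 3 receptors thus stood lower both in level and in cells that held it, although single cells overlapped. Icos, the inducible costimulator, and Cd226, DNAM-1, went the other way, with Icos at 49.5 and 149 CPM (3.00, 2.12 to 4.30) and Cd226 at a ratio of 2.02. Both were under 50 CPM in control members and were compared only through the motolimod library. Icos was found in 25 of 52 and 32 of 43 members.

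Of 13 inhibitory receptors, 6 were compared, 1 was higher and 1 lower, with a median log2 ratio of -0.38, beside 14.2% higher and 7.87% lower over all compared genes. Pdcd1, PD-1, had 347 and 247 CPM (0.710, 0.585 to 0.859), found in 48 of 52 and 28 of 43 members. Tigit had a ratio of 0.622 (0.452 to 0.846), which was 1.03 after thinning to 3000 UMIs. Havcr2, TIM-3, had 0.670, Lag3 0.827 and Ctla4 1.14. Cd160 was the member counted as higher, at 48.5 and 85.4 CPM (1.76, 1.18 to 2.63), and was compared only through the motolimod library. Entpd1, CD39, had 48.5 and 41.1 CPM and was not compared.

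Of 15 compared homing and adhesion genes out of 21, 9 were higher in motolimod members and 1 lower, beside 14.2% and 7.87% over all compared genes. The 5 genes named next were under 50 CPM in control members and were compared only through the motolimod library, so their being higher follows in part from that filter. Cxcr3, the receptor for Cxcl9 and Cxcl10 (chrX:101731535-101734269, minus strand), had 6.66 and 71.1 CPM (10.7, 4.78 to 28.1), found in 5 of 52 and 17 of 43 members. Thinned to 3000 UMIs it was seen in 5.77% and 26.2% of members, against 0.374% and 0.382% of macrophages. Itgb7, the beta 7 integrin, had 17.1 and 139 CPM (8.12, 4.85 to 14.3), Cxcr4, the receptor for Cxcl12, 10.5 and 52.2 (4.98), Ccr2, a receptor for monocyte chemoattractants, 17.1 and 64.8 (3.78), and Cd69, which holds cells in tissue, 42.8 and 138 (3.21). Macrophages also held some of these genes, with Itgb7 in 7.97% and 14.7% and Ccr2 in 13.2% and 33.7% of thinned macrophages, and the part of their RNA in the result was not tested.

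Among 13 naive and memory genes, 5 were compared, 3 were higher and 1 lower, beside 14.2% and 7.87% over all compared genes. Klf2 and Cd7 were compared only through the motolimod library and Ccr7 only through the control library. Their being higher or lower follows in part from that filter. Klf2, a factor that keeps T cells quiescent and circulating, had 47.6 and 264 CPM (5.55, 4.02 to 7.77), and Ly6c2, a surface protein of memory CD8 cells, 470 and 1358 CPM (2.89, 2.58 to 3.23). Klf2 was in 53.9% and 67.2% of thinned macrophages, more than the 3.85% and 35.7% of thinned members. Ly6c2 was in 17.8% and 30.0% of thinned macrophages, against 55.8% and 71.4% of thinned members. The part of macrophage RNA in either ratio was not tested. Cd7 had 4.76 and 53.8 CPM (11.3, 4.40 to 37.0) from 5 and 34 UMIs, and was at least 2.48-fold higher after thinning to 3000 UMIs, where the control members held none and were set at 3 counts. Ccr7, the receptor for entry into lymph nodes, had 127 and 23.7 CPM (0.187, 0.102 to 0.320). Its direction thus differed from that of Klf2 within the same list. Gzma-positive motolimod members held Cxcr3 in 10 of 23, Itgb7 in 16 of 23 and Klf2 in 12 of 23 cells, and the 20 other members held them in 7, 9 and 8.

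**Figure D4:**
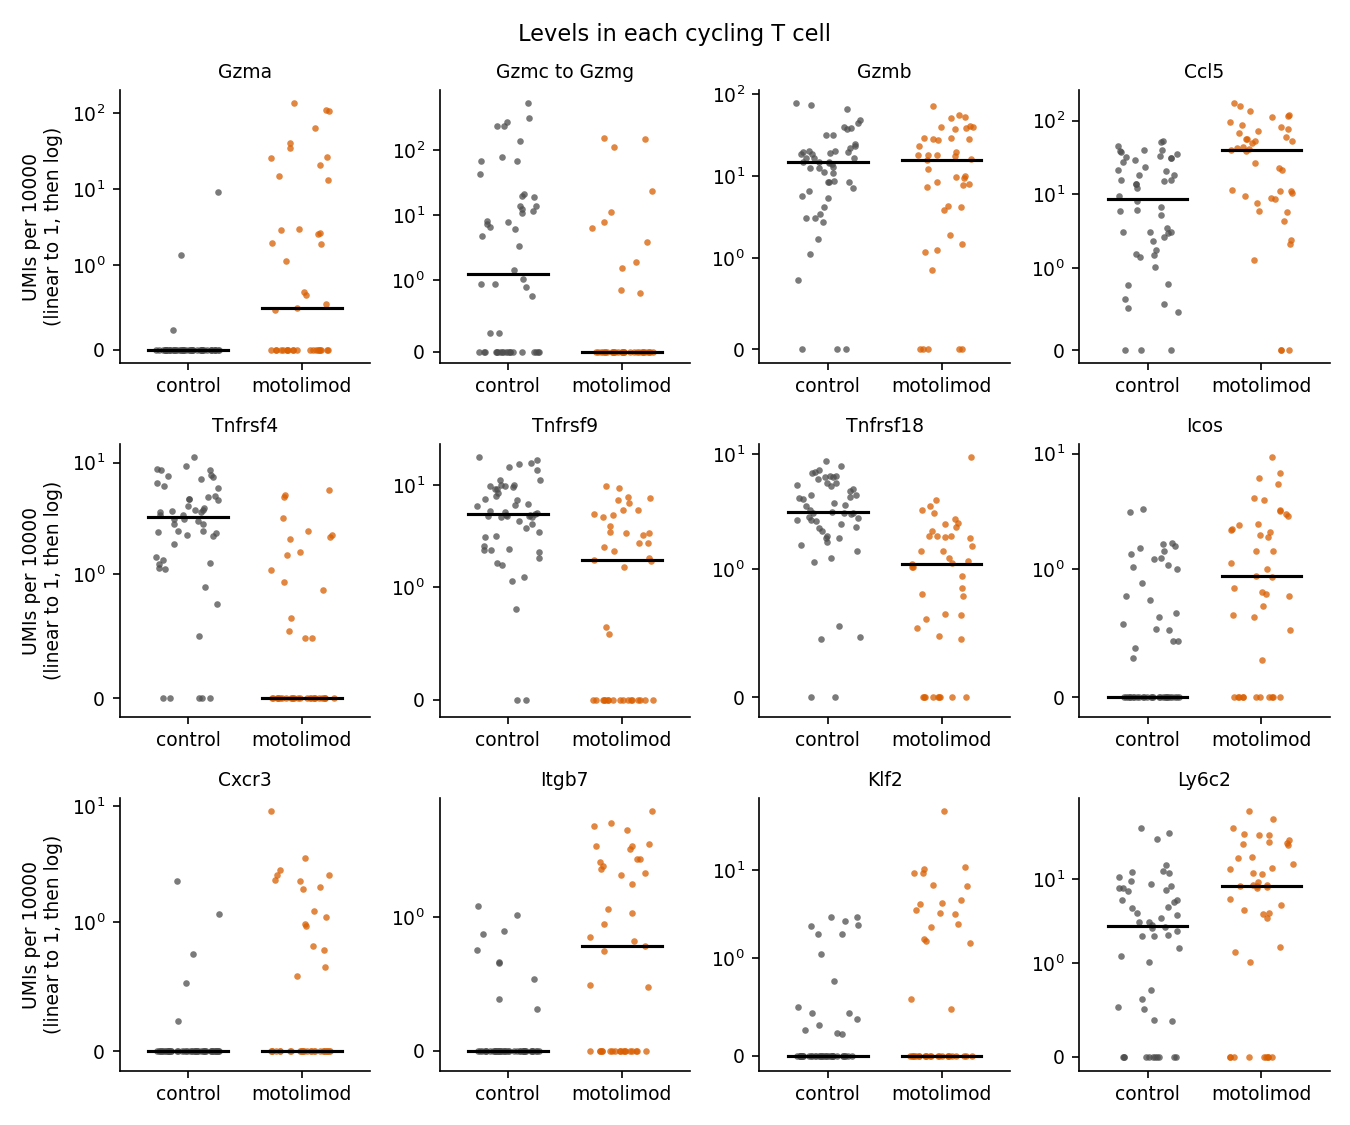
UMIs per 10000 in each member (vertical axes, linear to 1 and log above) for 11 genes and for Gzmc to Gzmg summed, with 1 point per cell and black bars at the medians. Median Ccl5 is 8.80 in control and 39.7 in motolimod cells, median Tnfrsf9 is 5.18 and 1.83, and Gzma is above 0 in 3 of 52 and 23 of 43 cells.

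Cytokine receptors had 3 of 12 compared genes higher and 1 lower out of 18, beside 14.2% and 7.87% over all compared genes. The lower was Il2ra, the alpha chain of the interleukin 2 receptor, with 54.2 and 17.4 CPM (0.321, 0.152 to 0.618). Ifngr1, an interferon gamma receptor chain, had a ratio of 1.73 and Il12rb2, of the interleukin 12 receptor, 1.77. Il12rb2 was compared only through the motolimod library and Il2ra only through the control library. Of 25 transcription factors of T cell state, 14 were compared, 2 were higher and 1 lower, near the shares over all compared genes. Ikzf3, Aiolos, had 45.7 and 114 CPM (2.49, 1.71 to 3.67) and was compared only through the motolimod library. Hopx had a ratio of 1.59, which was 1.40 without its top cell, and Irf8 had 470 and 232 CPM (0.494, 0.408 to 0.596). In the T cell receptor list, 2 of 15 compared genes were higher, near the share over all compared genes. They were Trbc1 (3.94) and Trbc2 (2.05), the alternative constant parts of the beta chain.

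Targets of type I interferon had 8 of 12 compared genes out of 26 higher and none lower, at a median log2 ratio of 0.68. Rtp4 and Trim30a were compared only through the motolimod library. Isg15, a ubiquitin-like modifier, had 65.7 and 218 CPM (3.32, 2.47 to 4.50), Ifi27l2a 524 and 1205 CPM (2.30, 2.06 to 2.57), Rtp4 a ratio of 4.03, Trim30a 2.55 and Zbp1, a sensor of nucleic acids, 2.17. Isg15 was also in 68.8% and 55.5% of thinned macrophages, against 21.2% and 40.5% of thinned members. A single cell held 31.2% of its motolimod UMIs. Ifi27l2a was in 89.5% and 87.1% of thinned macrophages and in 53.8% and 57.1% of members. Rtp4 was in 35.1% and 34.1% against 5.77% and 14.3%, and Zbp1 in 40.7% and 43.5% against 13.5% and 28.6%. Trim30a was in 20.2% and 32.0% against 17.3% and 19.0%. The part of macrophage RNA in these ratios was not tested. Targets of interferon gamma had 2 of 12 compared genes out of 21 higher and 1 lower, near the 14.2% and 7.87% over all compared genes, and a median of -0.01. The difference between the interferon lists was not tested. Igtp, an interferon-induced GTPase, had a ratio of 2.15, Gbp4 1.66 and Serpina3g, a protease inhibitor, 0.357 (0.257 to 0.488). Igtp and Gbp4 were compared only through the motolimod library.

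Glycolysis had 6 of 13 compared genes out of 16 lower and none higher, with a median log2 ratio of -0.53. Over all compared genes 7.87% were lower and 14.2% higher. Tpi1, triosephosphate isomerase, had 658 and 367 CPM (0.558, 0.479 to 0.648), and the glucose transporter Slc2a3 a ratio of 0.541, Pfkl 0.554, Pgk1 0.622 and Pgam1 0.622. The list of Myc and ribosome biogenesis had 5 of 15 compared genes out of 19 lower and none higher (median -0.34). Odc1, the first enzyme of polyamine synthesis, had 650 and 256 CPM (0.394, 0.330 to 0.468), and Myc itself 89.5 and 44.3 CPM (0.495, 0.312 to 0.762). Myc was compared only through the control library. The polyamine enzyme Srm (0.571), Nop16 (0.583) and Pa2g4 (0.618) completed the count. Srm, Nop16 and Pa2g4 no longer passed 1.5-fold after thinning to 3000 UMIs, and Srm also not without its top cell. Myc no longer passed it with CPM averaged over cells. With the C1q genes at 0, Pa2g4 and the glycolysis genes Pgam1 and Pfkl no longer passed it. Proteasome and chaperone genes had 3 of 18 lower, Hspa9 (0.523), Hspd1 (0.610) and Psmb6 (0.616), and none higher. Nucleotide synthesis had 1 of 12 compared genes higher and 1 lower, Impdh2 of guanine synthesis (0.558). Hspd1 and Impdh2 no longer passed 1.5-fold after thinning to 3000 UMIs, and Hspd1 also not without its top cell. None of 16 compared respiration genes passed the threshold, with a median of -0.19.

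**Figure D5:**
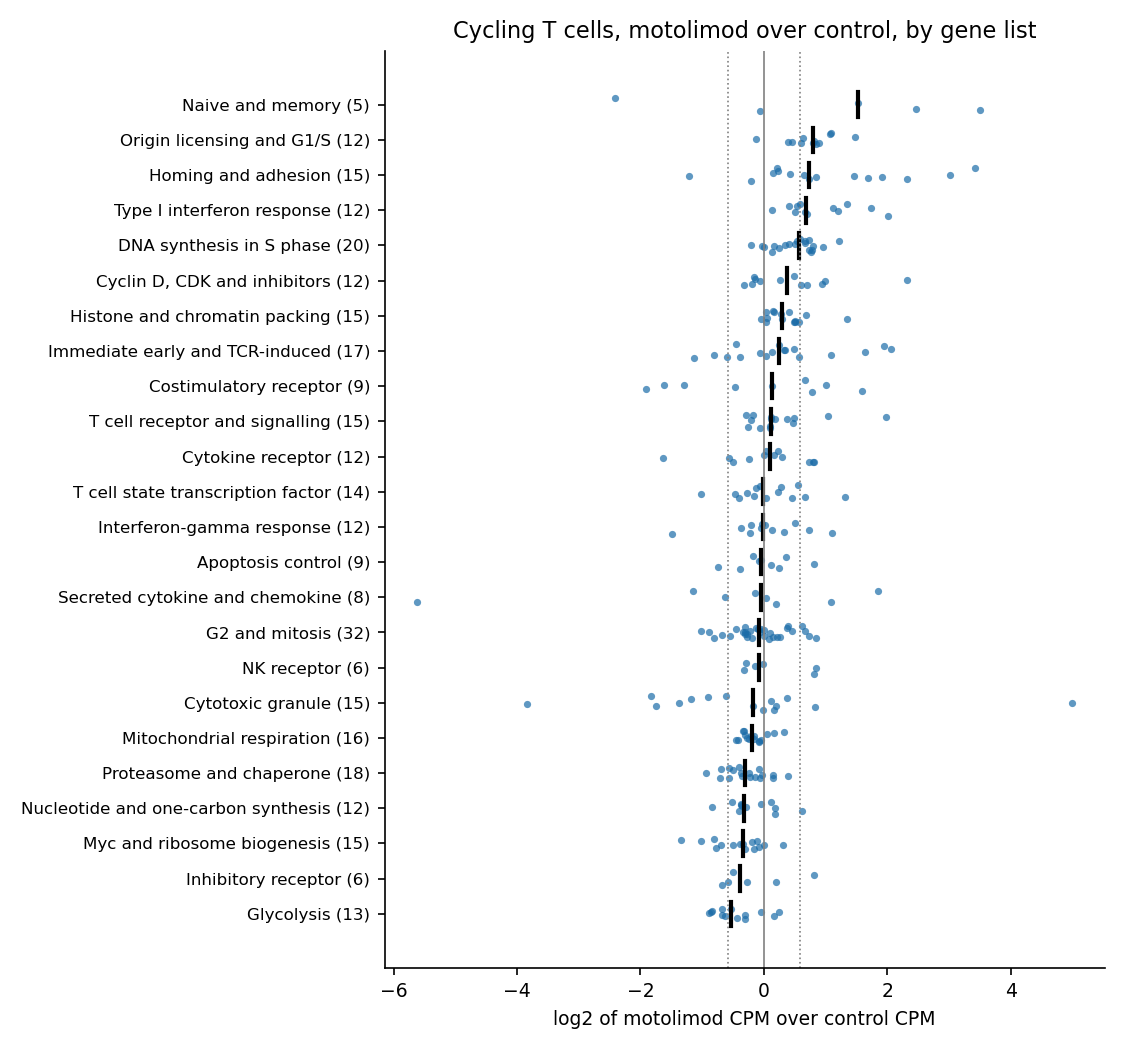
log2 ratio of motolimod to control CPM in cycling T cells (horizontal axis) for each compared gene of the lists of T cell genes and cell functions with at least 5 compared genes (number in brackets; lists of other cell types are not drawn), with black bars at the list medians and dotted lines at 1.5-fold. Medians run from -0.53 for glycolysis to 1.53 for naive and memory genes, and Gzma and Csf2 are the points farthest out. Of the naive and memory genes, Klf2 and Cd7 were compared only through the motolimod library and Ccr7 only through the control library. Gzma was also compared only through the motolimod library, and Csf2 only through the control library.

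Immediate early genes had 4 of 17 compared genes higher and 3 lower, beside 14.2% and 7.87% over all compared genes. Egr1 (4.19), Fosb (3.88), Fos (3.10) and Ier2 (2.12), which respond within minutes to stimulation and to tissue handling, were the higher ones. Apoptosis genes had 1 of 9 compared genes higher and 1 lower, near the shares over all compared genes, with Casp8 at 1.75. Of the NK receptor list, Fcer1g (1.77) and Tyrobp (1.80), which myeloid cells also express, were the 2 of 6 counted as higher, and stood at 1.13 and 1.06 without their top cells.

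Over all compared genes, the extremes held V genes and genes carried by few cells. Trav6-4 had 0 control UMIs and 75.9 CPM in 6 motolimod cells, at least 26.6-fold higher against a floor of 3 counts over the control members, and Trbv1 had a ratio of 9.30. Trbv20 had 98.0 CPM in 9 control cells and no UMI in the motolimod library, at least 20.7-fold lower against the same floor there, and Trbv12-2 had a ratio of 0.0936. Rasgrp2, an activator of the integrin switch Rap1, had 10.5 and 106 CPM (10.1, 5.31 to 21.2) in 9 and 19 cells. Slc16a11, of the monocarboxylate transporter family, had 70.4 and 6.32 CPM (0.0898), Ccdc184 99.0 and 9.49 (0.0959), the trefoil factor Tff1 58.0 and 9.49 (0.163) and Prkce, protein kinase C epsilon, 64.7 and 11.1 (0.171). Rasgrp2 was compared only through the motolimod library, and Slc16a11, Ccdc184, Tff1 and Prkce only through the control library. Their directions follow in part from that filter. Ccn1, with 119 UMIs in 2 motolimod cells, Cebpd, Trbv15 and Hmox1 depended on 1 cell each. Without that cell their ratios were 0.586, 0.390, 1.72 and 0.857.

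Of the axis in the study's title, Pf4, platelet factor 4, had 164 and 77.5 CPM in 5 and 8 members (0.473, 0.337 to 0.654), and 131 of its 172 control UMIs were in 1 cell. Without that cell the ratio was 1.96. Macrophages held Pf4 at 578 and 1994 CPM, and the part of their RNA in the members' Pf4 was not tested. Tlr8 and Tlr9 had no UMI in any member, which allows up to 2.85 CPM in the control and 4.74 CPM in the motolimod library at 3 counts, and Tlr7 had 0 and 1 UMI.

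Non-cycling CD8 T cells of the same libraries gave ratios on the same side for several of these genes. There, 371 of 2860 compared genes were higher (13.0%) and 204 lower (7.13%). Tnfrsf4 had a ratio of 0.294 there, Tnfrsf9 0.462, Itgb7 6.71, Klf2 3.78, Ccl5 2.39 and Isg15 2.95. Of G1/S genes, 3 of 5 compared were lower and none higher among non-cycling CD8 cells, with Mcm4 at 0.574 and Mcm7 at 0.514. Prf1 had 0.881, Cd7 1.29 and Rasgrp2 2.72. The difference between the 2 sets of ratios has no test.

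Against the non-cycling T cells of their own library, cycling cells differed in the genes of growth as well as of division. In the control library 628 of 3076 compared genes were higher (20.4%) and 570 lower (18.5%), and in the motolimod library 675 of 3264 were higher (20.7%) and 592 lower (18.1%). The cycle genes follow from the rule and are a description. All 29 and 30 compared genes of G2 and mitosis were higher, and Ccna2, Cenpf, Tpx2, Kif11, Knl1 and Aspm led the ranking. Nucleotide synthesis had 11 of 11 compared genes higher in the control and 9 of 9 in the motolimod library, and the Myc and ribosome list 12 of 14 and 11 of 13, with none lower. Proteasome and chaperone genes had 10 of 18 and 9 of 18 higher. Homing and adhesion genes were lower in 10 of 15 and 11 of 16, naive and memory genes in 6 of 6 and 5 of 8, and targets of type I interferon in 10 of 13 and 11 of 16, with none higher in either library.

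Lineage moved with that contrast. All 5 compared gamma-delta genes were lower in cycling cells of both libraries, and Trdc, Trdv4, Tcrg-C1, Tcrg-V6, Il17a and Cd163l1 were among the lowest ratios, with Il7r, Irs2, Krt83 and Trbv17. Within CD8 cells alone, 599 of 2931 genes were higher (20.4%) and 342 lower (11.7%) in the control library, and 738 of 3140 were higher (23.5%) and 519 lower (16.5%) in the motolimod library. There, nucleotide synthesis had 8 of 11 and 9 of 9 higher, the Myc and ribosome list 10 of 14 and 11 of 13, and homing genes 7 of 11 and 9 of 16 lower. Targets of type I interferon were lower in 4 of 9 and 7 of 15, with a median log2 ratio of -0.58 in the control library against -1.15 over all T cells. Naive and memory genes were lower in 4 of 6 and 4 of 7. Inhibitory receptors were lower in cycling than in non-cycling CD8 cells in 4 of 9 compared genes of the control and 7 of 9 of the motolimod library, with Lag3 at 0.557 and 0.466 and Tigit at 0.510 and 0.412. Icos stood at 0.408 and 0.652, and Ccl5 at 0.189 and 0.313. Interferon gamma targets were lower in 0 of 12 and 9 of 17.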

How the data were processed

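Droplet 10x libraries of CD45-selected tumour cells, 1 per group, were used as deposited filtered matrices of raw UMI counts per gene and barcode. Per the file headers they were written by Cell Ranger 7.1.0, and the submitters' processing notes name Cell Ranger 5.0.1 and the mm10 genome. The cell rule, the gene lists and the tests were chosen with earlier results of these data known. UMIs were summed over cells of a kind and scaled to CPM, with exact Poisson, binomial (Clopper-Pearson) and conditional ratio intervals at 95%. No doublet caller was run, and doublets were limited only by the genes the rule requires to be absent. Named genes were the 6 cycling genes, all measured genes of the co-receptor, granule, inhibitory and PF4 lists, up to 5 of each other list with the largest ratios, and the 10 highest and lowest ratios over all genes, both for motolimod against control and for cycling against non-cycling cells, at no less than 20% of their level in macrophages, neutrophils and keratin-positive cells. Promoters of 2 cycling genes of the rule, Cdc6 and Cdc20 are shown, each with the motif marked. Those of all 6 cycling genes were planned. Scripts were tested on simulated counts and used Python 3.11.15, numpy 2.4.6, scipy 1.17.1, pandas 2.3.3, matplotlib 3.10.9 and Biopython 1.88 with seed 1. The alternatives changed the cycling, macrophage and cell filters, thinning, averaging, scaling, minimum level and fold.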

Additional observations from a re-analysis of the deposited data

Results flagged for a closer look

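For 4 genes the ratio of cycling to non-cycling T cells lay on opposite sides of 1 in the libraries, each past 1.5-fold. None of these differences was tested. Gzma stood at 0.0995 (39.0 against 392 CPM) in the control library and at 2.52 (1246 against 494 CPM) in the motolimod library, and within CD8 cells at 0.173 and 2.17. Csf2 stood at 3.77 (155 against 41.2 CPM) and 0.0631 (3.16 against 50.1 CPM), with 80 of 163 control UMIs in 1 member. Hspa1a, a heat shock protein that tissue handling also raises, stood at 1.61 and 0.388, with 35 of its 73 control UMIs in 1 member. Pf4 stood at 8.37 and 0.533, with 131 of 172 control UMIs in 1 member, and macrophages held it at 578 and 1994 CPM.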

How the results depend on the processing

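Of the 102 named genes past 1.5-fold, 86 stayed past it on the same side without the member with most UMIs of each gene and 96 of 101 without members holding Ccn1 or Xcr1, both alternatives chosen after seeing the data. Counts that stayed ranged from 87 with the C1q genes at 0 to 101 with the stricter filter, and 91 of 103 stayed after thinning to 3000 UMIs. The motolimod to control ratio changed side for Gzmf (1.17) and Ccl3 (1.03) with the C1q genes at 0, and for Tigit (1.03) after thinning. Pf4 went to 2.13 with 4 of 6 cycling genes, 4.57 without barcodes of 4 or more myeloid genes, 1.81 with C1q at 0 and 1.96 without its top cell. Ccn1 went to 0.607 with 4 of 6 genes and 0.586 without its top cell, and Cebpd to 0.405, 0.390 and, without members holding Ccn1 or Xcr1, 0.205. Hmox1 went to 1.11 with 4 of 6 genes and 1.78 without the myeloid barcodes. The cycling share was 28.9% in the control library with 2 of 6 genes, 6.12% and 4.65% in the control and motolimod libraries after thinning to 1000 UMIs, and 8.82% in the motolimod library after thinning to 3000. The CD8 share of members was 63.5% and 62.8% after thinning to 1000 and 90.4% in the control library after thinning to 3000. Genes higher and lower in motolimod members numbered 873 and 685 after thinning to 3000, 1167 and 543 at a minimum of 20 CPM, 156 and 107 at 100 CPM, and 139 and 78 at 2-fold. Cycling against non-cycling gave 1134 and 1327, 336 and 277, and 262 and 280 in the control library under the last 3 settings, and 1301 and 1310, 365 and 308, and 338 and 243 in the motolimod library. Within CD8 cells 342 genes were lower in the control library. The G1/S sum had a ratio of 1.99 and the G2 and mitosis sum 1.07 after thinning to 3000. The cause of these shifts was not tested. No paired analysis was possible because each group has 1 library. With 43 and 52 cells, a single cell can set the level of a gene, and a gene held by few cells is limited by that number and not by UMIs.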
